A study of Rattus norvegicus with 4 samples.

Results

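The amino acid transporter genes described here are the rows of the deposited count table whose symbol belongs to the Slc1a, Slc6a, Slc7a, Slc36a, Slc38a or Slc43a family. Membership was set by symbol, with Slc7a11 left out, and covers 58 of the 32883 genes listed. The families were chosen with earlier results of these data known. Total RNA was sequenced from HSC-T6, a line of immortalised hepatic stellate cells of the rat, as 2 untreated libraries and 2 libraries after treatment with GRK1, which the series title spells out as ginsenoside RK1 (Rk1 below), a saponin of processed ginseng. All libraries come from the same line, which holds no other liver cells, and the dose, the duration and any vehicle are not in the labels. Each group has n = 2 libraries throughout. The labels do not say whether these are separate cultures, and the p-values therefore rest on a spread that may be technical.

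Most amino acids cross membranes through carriers, and a cell's supply depends on which carriers it makes and where it places them. Carriers coupled to sodium, such as most Slc1a, Slc6a and Slc38a proteins, load the cell against a gradient, whereas many Slc7a light chains join the heavy chain Slc3a2 and swap one amino acid for another. Some Slc36a and Slc38a proteins sit on lysosomes, where they release amino acids from digested protein and touch the mTORC1 growth pathway. Stellate cells draw on these carriers for the glycine, proline and glutamine that collagen synthesis needs.

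The libraries held 18008586 to 20430930 counts, and 3 counts correspond to 0.148 to 0.167 CPM, a gene's counts scaled to a common library size. The cell type label was checked against marker genes. Of 10 stellate markers listed, Lrat and Reln had 0 counts in all libraries, while Col1a1, Col3a1 and Vim were abundant. The summed stellate level was 17710 to 18760 CPM untreated and 11850 to 11940 CPM with Rk1. Most of it was Col1a1 and Col3a1, at means of 12050 and 4845 CPM untreated and 8017 and 2627 CPM with Rk1. Acta2, Gfap and Des were scarce, at means of 3.34, 3.48 and 5.46 CPM untreated. Of the 8 stellate markers tested, 5 fell (Acta2, Col1a1, Col3a1, Dcn and Gfap), while Des (log2 fold change 0.37), Pdgfrb and Vim were not called. The part of these falls in the transporter results was not tested. The 6 hepatocyte markers summed to 0.197 to 0.330 CPM and the 5 macrophage markers to 1.13 to 1.78 CPM, with Ptprc, Adgre1 and Cd163 at 0. Endothelial markers summed to 0.668 to 0.988 CPM. Cholangiocyte markers summed to 7.29 and 9.07 CPM untreated and to 2.78 and 2.58 CPM with Rk1. Nearly all of that was Sox9, since Krt19, Krt7 and Epcam had 10, 4 and 1 counts over all libraries. The part of the fall of Sox9 in the transporter results was not tested either. In bulk RNA, fewer cells that make a transcript and less of it per cell cannot be told apart.

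The stretches before the start sites of 5 transporter genes are shown first as examples, all of which hold a marked motif. They are 3 genes that rose with Rk1 and 2 whose libraries differed within both groups. Other genes of both kinds are not shown. Each line gives the 250 bases before the start in RefSeq's promoter table (assembly GRCr8, a later build than the Rnor_6.0 coordinates of the count table), written 5′ to 3′ on the gene's strand. The windows are chr7:129742620-129742869 (minus strand) for Slc38a2, chr10:39824785-39825034 (plus strand) for Slc36a1, chr19:9215128-9215377 (plus strand) for Slc38a7, chr14:98761563-98761812 (minus strand) for Slc1a4 and chr12:11664238-11664487 (plus strand) for Slc7a1. Capitals mark 3 motifs searched on both strands: the E-box CACGTG, bound by factors such as MYC and TFEB, the antioxidant response element TGACNNNGC, and TGATGNAA, the core of the element that C/EBP and ATF factors bind. In Slc36a1 the second E-box shares bases with the antioxidant response element.
Slc38a2: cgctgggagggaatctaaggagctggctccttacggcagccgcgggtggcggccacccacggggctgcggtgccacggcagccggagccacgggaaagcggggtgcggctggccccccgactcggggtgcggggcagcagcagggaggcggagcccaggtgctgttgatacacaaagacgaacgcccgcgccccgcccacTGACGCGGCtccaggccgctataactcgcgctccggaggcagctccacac
Slc36a1: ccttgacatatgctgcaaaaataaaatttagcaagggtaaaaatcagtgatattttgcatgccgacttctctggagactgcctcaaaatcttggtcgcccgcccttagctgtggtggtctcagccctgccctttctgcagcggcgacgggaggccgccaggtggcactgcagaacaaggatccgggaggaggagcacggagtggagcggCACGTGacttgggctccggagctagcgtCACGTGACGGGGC
Slc38a7: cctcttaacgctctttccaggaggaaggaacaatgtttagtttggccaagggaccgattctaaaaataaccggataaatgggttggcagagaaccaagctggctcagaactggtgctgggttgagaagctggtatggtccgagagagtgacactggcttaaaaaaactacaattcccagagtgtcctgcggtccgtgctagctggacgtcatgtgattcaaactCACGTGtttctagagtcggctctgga
Slc1a4: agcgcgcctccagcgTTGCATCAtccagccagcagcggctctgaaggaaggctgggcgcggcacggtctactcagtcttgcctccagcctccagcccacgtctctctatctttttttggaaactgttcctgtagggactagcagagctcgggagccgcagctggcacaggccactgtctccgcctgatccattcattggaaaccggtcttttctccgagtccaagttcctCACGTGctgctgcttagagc
Slc7a1: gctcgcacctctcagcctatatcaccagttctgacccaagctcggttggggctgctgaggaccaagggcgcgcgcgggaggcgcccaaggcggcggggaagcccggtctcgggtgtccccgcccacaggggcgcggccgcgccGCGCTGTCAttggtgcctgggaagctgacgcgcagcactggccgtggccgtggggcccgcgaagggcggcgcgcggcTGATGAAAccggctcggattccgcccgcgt

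The promoter table holds 42 of the 58 transporter genes, among them 21 of the 27 that were tested and all 8 that were called. Over windows of 300 bases, from 250 before to 50 after the start, the E-box was present in 5 of these 21 genes (Slc1a4, Slc36a1, Slc38a7, Slc43a1 and Slc7a5), against 6.42% of all 33469 promoters in the table. Slc36a1 held it at 2 places, starting 41 and 13 bases before the start, and Slc38a7 at 26 bases before it. The antioxidant element was in 5 of the 21 (Slc36a1, Slc38a2, Slc6a6, Slc7a1 and Slc7a7), against 12.1% of all promoters. The C/EBP-ATF core was in Slc1a4, Slc38a1 and Slc7a1, against 3.98%. None of the motifs was found for the called genes Slc36a4, Slc6a8 and Slc38a4. Slc7a5, whose libraries also differed within both groups, had no C/EBP-ATF core. Slc38a1 held that core, though its replicate differences had opposite signs in the groups. The counts are of tested genes with a match at any of their starts, whereas the percentages are over single promoters of all genes, tested or not. They are therefore not like for like and give no enrichment. A match of letters is a description only, since binding was not measured. The amino acid response element known for Slc38a2 lies in an intron, outside these windows.

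Rk1 was followed by higher transcript levels of 6 transporter genes and lower levels of 2. The genes that rose encode the sodium-coupled glutamine and alanine importer Slc38a2 and the lysosomal glutamine carrier Slc38a7. They also include the genes of the Slc36a carriers Slc36a1 and Slc36a4, the taurine importer Slc6a6 and the creatine importer Slc6a8. Those that fell encode Slc43a1, which lets large neutral amino acids cross by facilitated diffusion, and Slc38a4, a sodium-coupled neutral carrier best known from hepatocytes. By substrate or family, both tested osmolyte and creatine carriers rose, as did both tested Slc36a carriers. Of 5 tested Slc38a carriers for glutamine and small neutral amino acids, 2 rose and 1 fell. No gene of the Slc1a or Slc7a family was called. The calls come from edgeR's quasi-likelihood test over all 12316 genes with enough counts, at a Benjamini-Hochberg adjusted p under 0.05. Of the 27 transporter genes tested, 29.6% were called, against a background of 22.0% of all genes tested (11.5% higher and 10.5% lower). The median log2 fold change of the 27 was -0.02, against 0.0011 over all genes tested, and the untreated and Rk1 libraries did not overlap in 12 of the 27 (44.4%), against 63.0% of all genes tested. By DESeq2, 3 transporters were higher and 0 lower, with 5 higher and 1 lower at an unadjusted p under 0.05.

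**Figure D1:**
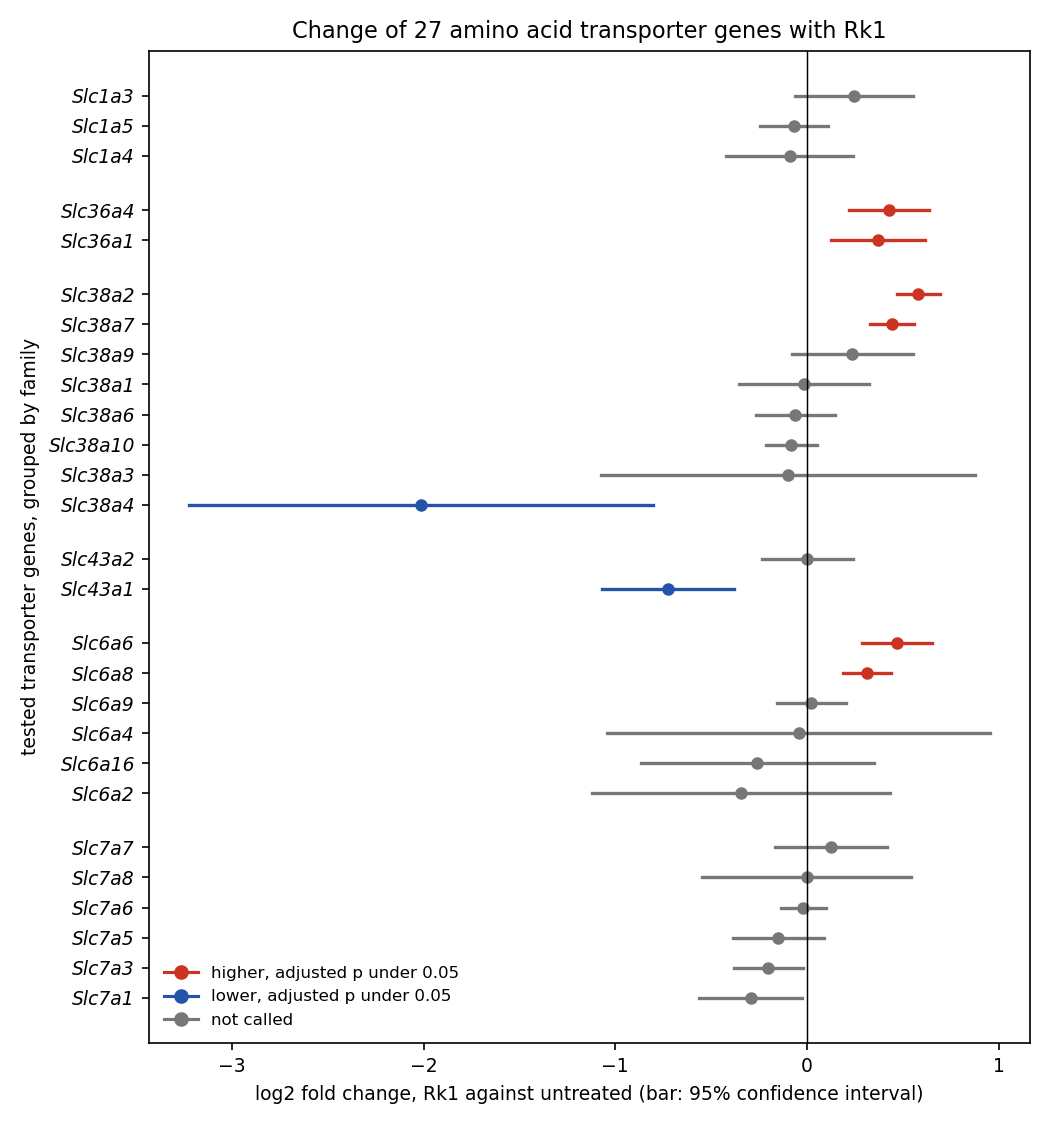
Log2 fold change of Rk1 against untreated (x axis) for the 27 tested transporter genes (y axis, grouped by family), with bars for the 95% confidence interval and colours for the call. The 6 red genes lie to the right of 0 in the Slc36a, Slc38a and Slc6a families, the 2 blue genes are Slc38a4 and Slc43a1, and the Slc1a and Slc7a genes are grey.

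Per kilobase of exon, Slc38a2 stood above every other transporter of the 6 families in each library. Its level was 168 and 181 RPKM (CPM per kilobase of exon) untreated and 266 and 255 RPKM with Rk1, which ranked it 374 among the 12316 tested genes by mean level. Next came Slc38a10, a less studied relative, at a mean of 68.6 RPKM untreated and 64.9 with Rk1. Slc7a5, the light chain that exchanges large neutral amino acids such as leucine, followed at 62.6 and 56.4 RPKM. Slc6a6, Slc1a5, Slc7a6, Slc7a1 and Slc1a4 had group means between 29.7 and 47.0 RPKM. The low end was formed by Slc6a16, Slc6a2, Slc7a8, Slc38a4, Slc38a3 and Slc6a4, each at a mean under 1 RPKM in both groups.

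**Figure D2:**
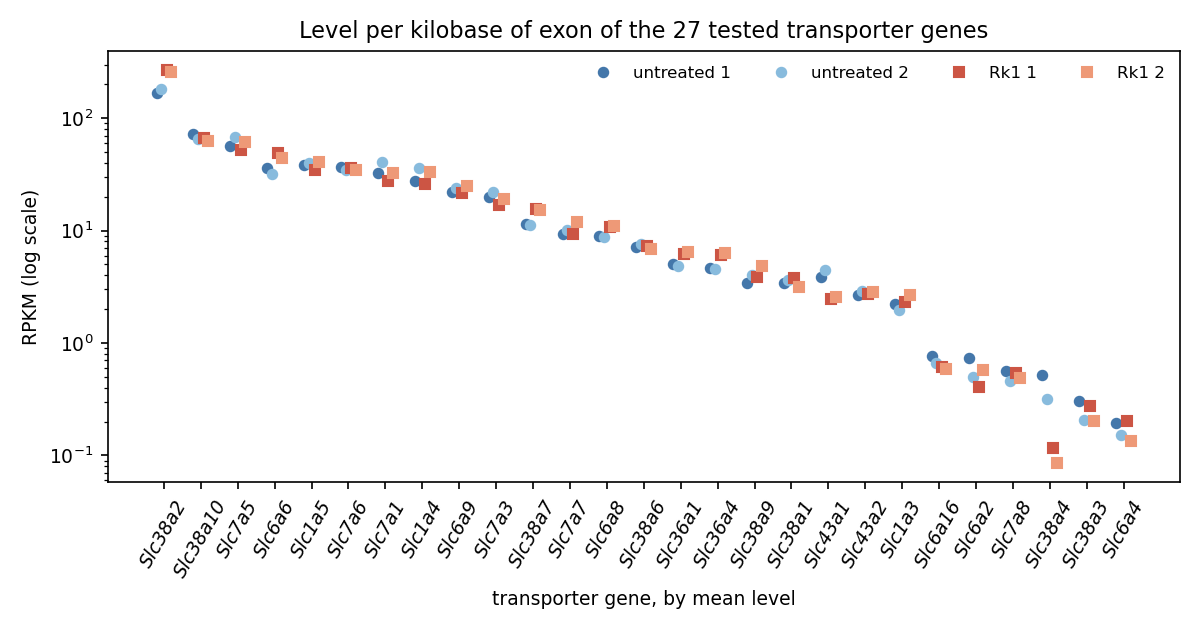
RPKM on a log axis for the 27 tested transporter genes, ordered by mean level (x axis), with 1 point per library, circles untreated and squares Rk1. Slc38a2 is highest in all 4 libraries, with 168 to 181 RPKM untreated and 255 to 266 RPKM with Rk1.

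Summed per kilobase over a family, the Slc38a genes went from 266 and 273 RPKM untreated to 364 and 349 RPKM with Rk1, and Slc38a2 made up 63.1% and 66.1% of that sum untreated and 73.2% in both Rk1 libraries. The Slc6a sum was 68.7 and 65.6 RPKM untreated and 83.1 and 81.8 with Rk1, with Slc6a6 as its largest part. The small Slc36a sum was 9.66 and 9.40 RPKM untreated against 12.3 and 12.8 with Rk1. In these 3 families the Rk1 libraries lay above both untreated libraries. The Slc7a sum overlapped between groups, at 156 and 177 RPKM untreated and 142.5 and 159.8 with Rk1, as did the Slc1a sum at 68.4 and 78.1 against 63.2 and 77.1. Slc43a sums were 6.55 and 7.35 RPKM untreated and 5.17 and 5.44 with Rk1. These sums are descriptions and were not tested.

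Slc38a2, which cells raise when amino acids run short or the medium becomes hypertonic, was at 778 and 837 CPM untreated and at 1235 and 1183 CPM with Rk1. Both treated libraries lay well above both untreated ones. The rise was 1.50-fold (log2 fold change 0.58 ± 0.05 SE, adjusted p = 2.9e-04) and was called under all 13 alternative settings, with log2 fold changes of 0.53 to 0.63. The gene (ENSRNOG00000006305) lies on chromosome 7 at 138088649 to 138100841, minus strand, in Rnor_6.0. Its neighbours on that strand are relatives. Slc38a1, another sodium-coupled glutamine importer, lies 48.7 kb away and was at 6.90 and 7.31 CPM untreated and 7.68 and 6.36 CPM with Rk1. Those libraries overlapped, and its log2 fold change of -0.02 had a 95% interval of -0.36 to 0.32, outside the interval of 0.47 to 0.69 for Slc38a2. Slc38a4 lies 359 kb away on the other side and fell.

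Slc38a7, which exports glutamine and asparagine from lysosomes, was at 43.3 and 42.2 CPM untreated and at 58.4 and 57.8 CPM with Rk1. The libraries of each group nearly coincided. It rose 1.36-fold (0.44 ± 0.05, adjusted p = 0.0011), and all 13 alternatives called it. The gene lies on chromosome 19 at 9622611 to 9638222, plus strand, and its promoter window above carries an E-box close to the start. Slc38a9, a lysosomal carrier through which mTORC1 senses arginine, was at 15.2 and 18.1 CPM untreated and 17.4 and 21.8 with Rk1. Its groups overlapped, and its log2 fold change of 0.24 was not called (adjusted p = 0.25, 95% interval -0.08 to 0.55).

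Both tested Slc36a genes rose by edgeR and limma-voom, but DESeq2 called neither. Slc36a1 kept its call under only 4 of the 13 alternative settings. Slc36a4, a high-affinity carrier of proline and tryptophan, was at 13.8 and 13.4 CPM untreated and at 17.9 and 18.8 CPM with Rk1, a 1.35-fold rise (0.43 ± 0.09, adjusted p = 0.014). Slc36a1, which moves small neutral amino acids with protons across the lysosomal and plasma membranes, was at 9.06 and 8.74 CPM untreated and at 11.3 and 11.7 CPM with Rk1. Neither gene overlapped between the groups. The Slc36a1 rise of 1.29-fold (0.37 ± 0.11, adjusted p = 0.043) lay near the threshold and lost its call with each single library removed (adjusted p = 0.088 to 0.15). Slc36a4 was not called without Rk1 replicate 2 (adjusted p = 0.068) or by DESeq2 (adjusted p = 0.095). Slc36a4 lies on chromosome 8 at 14239594 to 14269162 and Slc36a1 on chromosome 10 at 40543288 to 40574444, both on the plus strand. Slc36a2 and Slc36a3, next to Slc36a1, had 0 counts and a total of 2 counts.

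In the Slc6a family the osmolyte and creatine carriers rose. Slc6a6, which imports taurine, a solute that balances cell volume, was at 88.9 and 77.9 CPM untreated and at 122 and 109 CPM with Rk1. The lower Rk1 library still exceeded the higher untreated one. It rose 1.38-fold (0.47 ± 0.08, adjusted p = 0.0056), and all 13 alternatives called it. Slc6a8, which imports creatine, was at 34.7 and 34.4 CPM untreated and at 42.5 and 43.4 CPM with Rk1, a 1.24-fold rise (0.31 ± 0.05, adjusted p = 0.0068). That call was lost without untreated replicate 2 (adjusted p = 0.059) and by DESeq2 (adjusted p = 0.054). In Rnor_6.0, Slc6a6 lies on chromosome 4 at 123642210 to 123713464 and Slc6a8 on chromosome X at 157129987 to 157139291, both on the minus strand. In GRCr8, the assembly of the promoter windows, both lie on the plus strand. Slc6a12, the betaine carrier that also responds to tonicity, had 0 counts in all libraries.

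The other Slc6a genes gave no call. Slc6a9, the glycine importer, was at 70.0 and 75.9 CPM untreated and 68.6 and 79.4 CPM with Rk1, so the groups overlapped. Its log2 fold change was 0.02, with a 95% interval of -0.16 to 0.20. The noradrenaline carrier Slc6a2, the serotonin carrier Slc6a4 and Slc6a16, whose substrate is not established, had 8 to 34 counts per library, and their 95% intervals ran from -1.12 to 0.43, from -1.04 to 0.95 and from -0.86 to 0.35 on the log2 scale. Those intervals, from n = 2 libraries per group at low counts, give no direction.

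**Figure D3:**
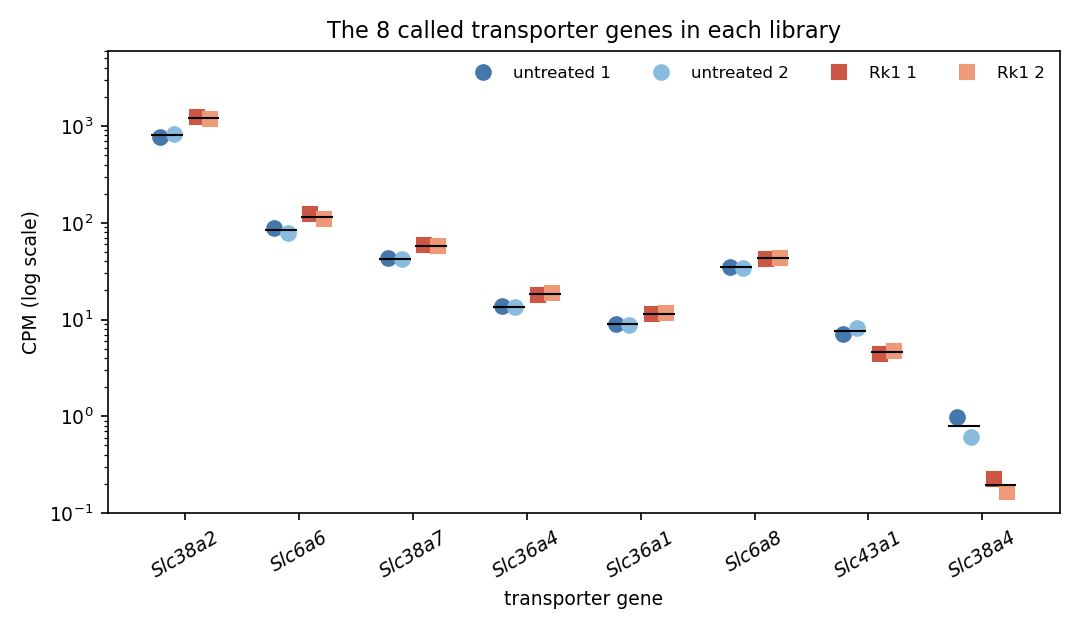
CPM on a log axis in each library (circles untreated, squares Rk1) for the 8 called transporter genes (x axis), with short lines at the group means. In each gene both Rk1 libraries lie on the same side of both untreated libraries, from 778 to 1235 CPM for Slc38a2 down to under 1 CPM for Slc38a4.

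Slc43a1 and Slc38a4 fell. Slc43a1 was at 7.09 and 8.08 CPM untreated and at 4.45 and 4.72 CPM with Rk1, or 144 and 147 counts against 80 and 86. The groups did not overlap, and the level was 1.65-fold lower with Rk1 (-0.72 ± 0.15, adjusted p = 0.013). The call was lost without untreated replicate 2 (adjusted p = 0.092) and by DESeq2 (adjusted p = 0.073). Slc43a2, its relative with like substrates, was at 11.9 and 13.1 CPM untreated and 12.2 and 12.8 CPM with Rk1, a log2 fold change of 0.00 with an interval of -0.24 to 0.24, which does not meet the Slc43a1 interval of -1.07 to -0.38. Slc43a1 lies on chromosome 3 at 72238981 to 72264466, plus strand. Slc43a3, 65.5 kb away, a carrier of purine bases rather than amino acids, had 0 counts.

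Slc38a4 had only 20 and 11 counts untreated and 4 and 3 counts with Rk1. The 2 treated libraries were lower than both untreated ones, and the estimated log2 fold change was -2.01 with a wide 95% interval of -3.22 to -0.80 (adjusted p = 0.031). By DESeq2, 0 of the 8 tested Slc38a genes were lower, also at an unadjusted p under 0.05. At this depth the size of the fall is poorly fixed. Without untreated replicate 1, Rk1 replicate 1 or Rk1 replicate 2 it was not called (adjusted p = 0.098 to 0.23), and a filter of 1 CPM in 2 libraries removed it. The gene lies on chromosome 7 at 138459504 to 138512952, minus strand. Slc38a3, a glutamine carrier of the liver, was as scarce, with 15 and 9 counts untreated and 12 and 9 with Rk1, and its interval ran from -1.07 to 0.88.

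Slc38a10 and Slc38a6 were not called. Slc38a10 was at 270 and 246 CPM untreated and 251 and 237 CPM with Rk1, with a log2 fold change of -0.08 and a 95% interval of -0.22 to 0.05. Slc38a6 was at 16.6 and 17.6 CPM untreated and 16.9 and 16.0 CPM with Rk1, with an interval of -0.27 to 0.15. Both genes overlapped between groups. Trmt5 overlaps the Slc38a6 locus on the opposite strand, with 261 to 306 counts per library, and without a stated strand setting reads there could belong to either.

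The 6 tested Slc7a genes gave 0 calls in either direction by edgeR, limma-voom or DESeq2, with 2 lower at an unadjusted p under 0.05 by edgeR and limma-voom and 0 by DESeq2. Those 2 are carriers of cationic amino acids. Slc7a1, the widely expressed arginine and lysine importer, was at 134 and 168 CPM untreated and at 113 and 133 CPM with Rk1. Its groups were separated only narrowly, since the higher Rk1 library nearly reached the lower untreated one. The log2 fold change was -0.29 ± 0.11 (adjusted p = 0.11), and without untreated replicate 1 it was -0.45 and was called (adjusted p = 0.011). Without untreated replicate 2 it was -0.13 (adjusted p = 0.41) and without Rk1 replicate 1 it was -0.18 (adjusted p = 0.37), so its size depends on single libraries. Slc7a3, a relative otherwise typical of brain, was at 48.5 and 53.8 CPM untreated and 41.7 and 47.1 CPM with Rk1 (-0.20 ± 0.08, adjusted p = 0.11). It was called without Rk1 replicate 2 (-0.29, adjusted p = 0.049), and was -0.12 without Rk1 replicate 1 (adjusted p = 0.37) and -0.13 without untreated replicate 2 (adjusted p = 0.42). Slc7a2, the cationic carrier of inflamed and hepatic cells, had 1 count in each untreated library and 0 with Rk1.

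The Slc7a light chains and their heavy chain were not called. Slc7a5 was at 196 and 237 CPM untreated and at 180 and 211 CPM with Rk1, so libraries within a group differed as much as the groups did. Its log2 fold change of -0.15 was not called (adjusted p = 0.34, 95% interval -0.39 to 0.09). Slc7a6 and Slc7a7, which swap cationic for neutral amino acids, had log2 fold changes of -0.02 and 0.13, with intervals of -0.14 to 0.10 and -0.17 to 0.42. Slc7a8, a second exchanger of large neutral amino acids, was scarce, at 33 to 45 counts per library, and its interval of -0.55 to 0.54 leaves its direction unsettled. The heavy chain Slc3a2 was at 313 and 383 CPM untreated and 265 and 327 CPM with Rk1 (-0.23, adjusted p = 0.20). Slc7a11, the cystine importer that shares this heavy chain, was at 89.5 and 107 CPM untreated and 73.9 and 93.3 CPM with Rk1 (-0.23, adjusted p = 0.21). Slc3a2 was called lower without untreated replicate 1 or Rk1 replicate 2, and Slc7a11 without Rk1 replicate 2.

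The 3 tested Slc1a genes also gave 0 calls by edgeR, limma-voom and DESeq2, with 0 at an unadjusted p under 0.05 by any of them. Slc1a5, the glutamine exchanger of many proliferating cells, was at 104 and 108 CPM untreated and 93.1 and 110 CPM with Rk1 (95% interval -0.25 to 0.11). Slc1a4, its relative for alanine and serine, was at 106 and 139 CPM untreated and 101 and 129 CPM with Rk1 (interval -0.42 to 0.24). For Slc1a4 the difference between libraries of a group exceeded the difference between the group means. Slc1a3, a glutamate importer, was at 8.77 and 7.70 CPM untreated and 9.07 and 10.5 CPM with Rk1, without overlap, but its log2 fold change of 0.25 was not called (adjusted p = 0.22).

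Several of these uncalled genes differed between libraries of a group in the same way as some genes of the amino acid response. In that response the kinase GCN2 and the transcription factor ATF4 raise transporters and biosynthetic enzymes when amino acids are short. Atf4 was at 668 and 811 CPM untreated and 484 and 664 CPM with Rk1. Its targets Trib3, at 57.9 and 115 CPM untreated and 43.8 and 106 CPM with Rk1, and Chac1, at 32.6 and 63.1 CPM untreated and 13.9 and 34.6 CPM with Rk1, spread more widely. Of the 27 tested transporters, 19 had replicate differences of the same sign in both groups. In 10 of them replicate 2 was above replicate 1, and in the rest, such as Slc6a6 and Slc38a10, it was below. That count was not made over all tested genes, where the replicate differences of the groups had a correlation of 0.059. Eif2ak4 and Cebpb, also genes of the amino acid response, differed in opposite directions in the groups. In both groups replicate 2 lay above replicate 1 in Atf4, Trib3, Chac1, Slc1a4, Slc7a1, Slc7a5, Slc3a2 and Slc7a11, chosen after their values were seen. Whether that spread carries the transporter values was not tested.

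**Figure D4:**
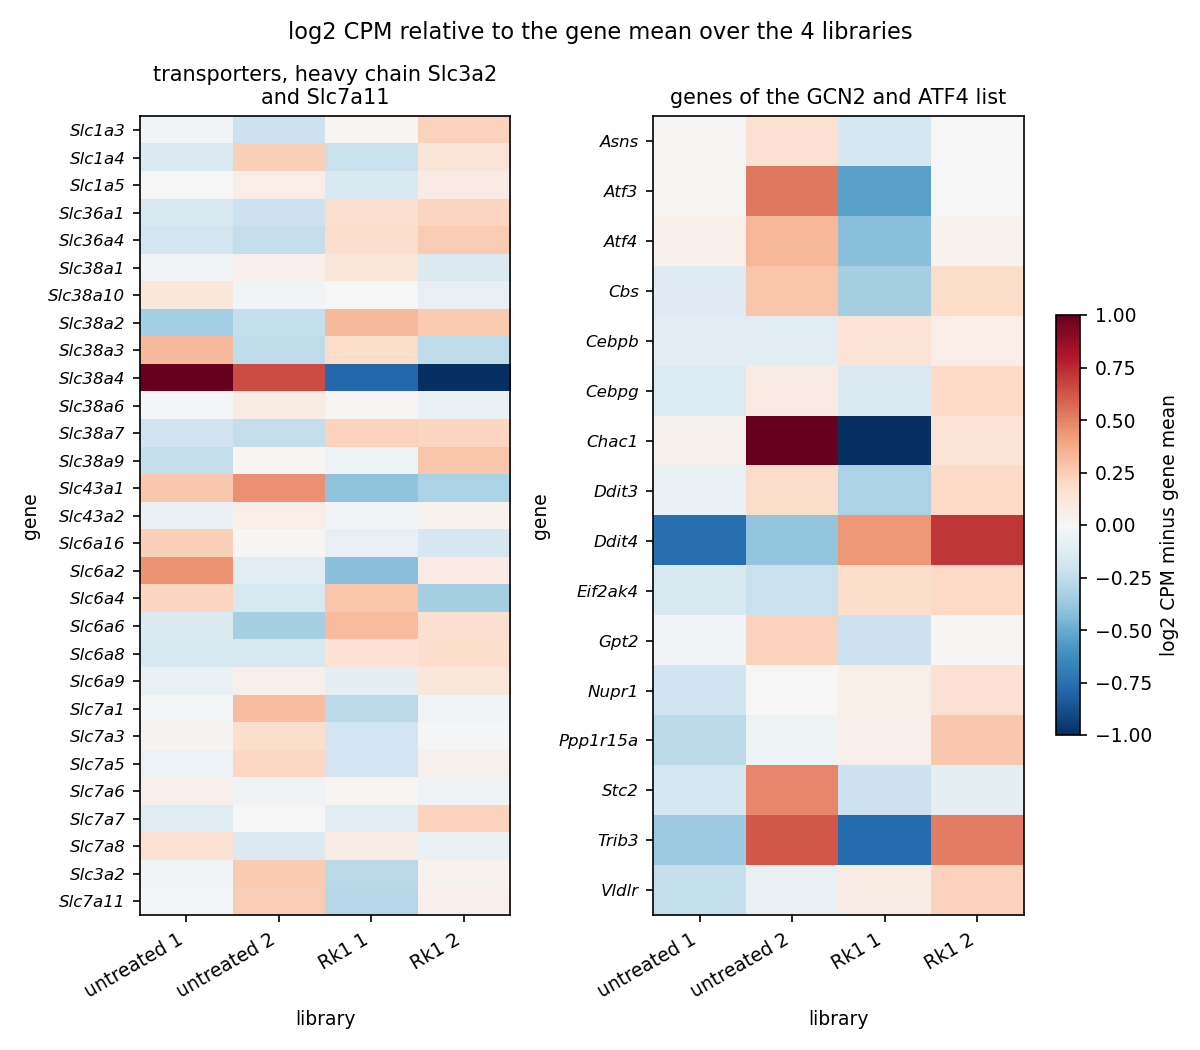
Log2 CPM in each library relative to the gene's mean over the 4 libraries (colour, limited to -1 and 1) for the 27 tested transporters with Slc3a2 and Slc7a11 (left) and the tested genes of the GCN2 and ATF4 list (right). Slc36a1, Slc36a4, Slc38a2, Slc38a7, Slc6a6 and Slc6a8 are blue in both untreated and red in both Rk1 libraries, while Slc1a4, Slc7a5 and Trib3 alternate between libraries of a group.

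Of 16 tested genes of the GCN2 and ATF4 list, 5 rose and 0 fell by edgeR (31.2% called against 22.0% of all genes), with 4 lower at an unadjusted p under 0.05, and the median log2 fold change was -0.12. Those that rose were Ddit4, an inhibitor of mTORC1 that many stresses induce (1.15, from 69.5 and 88.9 to 158 and 193 CPM), the GCN2 kinase gene Eif2ak4 (0.38), Ppp1r15a, which restores translation after stress (0.32), the lipoprotein receptor Vldlr (0.31) and the transcription factor Cebpb (0.21). By DESeq2 3 rose and 0 fell, with 2 lower at an unadjusted p under 0.05, and by limma-voom 5 and 0. Atf4 (-0.37, adjusted p = 0.11), Chac1 (-0.97, adjusted p = 0.14) and Asns, asparagine synthetase (-0.17, adjusted p = 0.13), were not called. The list depends on single libraries: without untreated replicate 1, 2 genes rose and 5 fell, and without Rk1 replicate 2, 3 rose and 4 fell, with Atf4 and Chac1 among the falls in both.

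Of 26 tested genes of amino acid sensing at mTORC1, 9 rose and 0 fell by edgeR (34.6% called against 22.0% of all genes). At an unadjusted p under 0.05, 2 were lower, and the median log2 fold change was 0.18. Flcn, which acts on the Rag GTPases (0.58, adjusted p = 0.0017), and its partner Fnip2 (0.69, adjusted p = 0.0011) rose most. Fnip2 was at 24.9 and 21.9 CPM untreated and 38.4 and 37.3 CPM with Rk1. The others were Lamtor1 to Lamtor4, which anchor the Rags on lysosomes (0.21 to 0.43), Rragc, a Rag GTPase (0.24), Bmt2, a sensor of S-adenosylmethionine (0.28), and Mtor itself (0.20). Only 3 rose without untreated replicate 2, 4 without untreated replicate 1 or without Rk1 replicate 1, and 4 by DESeq2. Flcn, Fnip2 and Rragc were called in each of those fits. Among 6 other carriers of the plasma membrane and lysosome, 1 rose (16.7% called against 22.0%), Slc66a1, a lysosomal exporter of cationic amino acids (0.45, adjusted p = 0.020), from 14.9 and 13.9 to 21.0 and 18.3 CPM. That share lies below the one over all genes. That call was lost without untreated replicate 2 or Rk1 replicate 1 and by DESeq2, and without untreated replicate 2 the cystine exporter gene Ctns was called in its place.

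Among 7 tested accessory proteins, Bsg, a chaperone of several carriers (0.27, adjusted p = 0.0028), and Nedd4l, a ubiquitin ligase that removes carriers from the membrane (0.25, adjusted p = 0.041), rose (28.6% called against 22.0% of all genes), and 0 fell by edgeR, limma-voom or DESeq2, also at an unadjusted p under 0.05. Nedd4l lost its call with each single library removed, and Slc3a2 was then called lower without untreated replicate 1 or Rk1 replicate 2. Of 4 tested genes of the tonicity response (1 of them, Sgk1, also among the accessory proteins), which also drives Slc6a6 and Slc38a2, 2 rose (11.5% of all genes rose) and 0 fell by each of the 3 tools, also at an unadjusted p under 0.05 for falls. They were the transcription factor Nfat5, at 412 and 376 CPM untreated and 518 and 489 CPM with Rk1 (0.35, adjusted p = 0.0051), and the chaperone Hspa4l (0.62, adjusted p = 0.0094). Both kept their call without any 1 library. Neither Akr1b1, the sorbitol-forming reductase of that response (0.15, adjusted p = 0.074), nor Sgk1 (-0.08, adjusted p = 0.28) was called.

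Enzymes that use the carried amino acids went both ways, with 5 of 19 tested higher and 3 lower (42.1% called against 22.0%). Glud1 (0.29, adjusted p = 0.0042) and Got2 (0.25, adjusted p = 0.0094), which feed glutamate carbon into the citric acid cycle, rose, as did Gatm, the first enzyme of creatine synthesis (0.36, adjusted p = 0.0029), Gcat, which cleaves a product of threonine (0.80, adjusted p = 0.0032), and Bckdha of branched-chain breakdown (0.26, adjusted p = 0.044). Odc1, which makes polyamines from ornithine, fell from 43.7 and 46.8 RPKM untreated to 26.1 and 28.4 RPKM with Rk1 (-0.73, adjusted p = 2.6e-04). Arg2, the arginase that makes ornithine (-0.78), and Cdo1, which starts taurine synthesis from cysteine (-0.56), fell too, but only Odc1 was lower with either untreated library or Rk1 replicate 1 removed. Without untreated replicate 2, 3 genes rose, Bckdha and Got2 being lost.

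**Figure D5:**
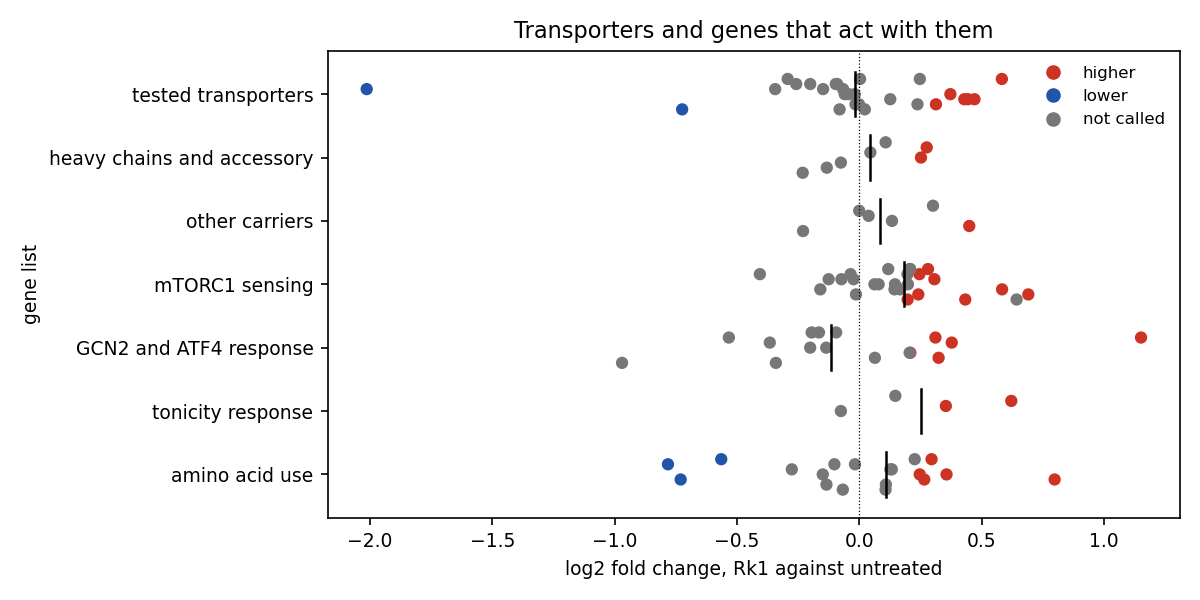
Log2 fold change of Rk1 against untreated (x axis) for the tested transporters and for the tested genes of 6 lists that act with them (y axis), with black lines at each list's median and colours for the call. The transporter median lies at -0.02 and that of the mTORC1 genes at 0.18, and falls that passed the test occur among the transporters and the genes of amino acid use.

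The remaining 31 transporter genes did not have enough counts to be tested, and no library held more than 11 counts of any of them. Of these, 17 were at 0 throughout, and such a count leaves room for up to 0.167 CPM in the shallowest library. They include the GABA carriers Slc6a11 and Slc6a13, the glutamate carriers Slc1a1 and Slc1a6, and Slc6a14, Slc6a18, Slc6a19 and Slc6a20, carriers of neutral amino acids and proline known from epithelia. Also at 0 were Slc36a2, Slc38a11, Slc43a3, Slc6a12, Slc7a10, Slc7a12, Slc7a14 and Slc7a15. A further 12 had 1 to 9 counts in total, namely Slc1a7, Slc36a3, Slc38a5, Slc38a8, Slc6a3, Slc6a5, Slc6a7, Slc6a15, Slc6a17, Slc7a2, Slc7a4 and Slc7a13. Slc7a9, a light chain of the kidney, had 8 and 11 counts untreated and 6 and 3 with Rk1, and the glutamate carrier Slc1a2 had 2 and 2 counts untreated and 5 and 7 with Rk1.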

How the data were processed

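RNA sequencing was compared between 2 untreated and 2 Rk1-treated HSC-T6 libraries. The authors deposited raw counts per Ensembl gene with exon lengths and Rnor_6.0 positions, per the file headers. HISAT2 and HTSeq were used, per the submitters' processing notes, with versions, strand setting and multi-mapping rules not given in the sources used here, so near-identical or overlapping genes could share or lose reads. Of 32883 genes, 12316 passed edgeR's filterByExpr with its minimum count at 10 and minimum total at 15. Libraries were scaled by TMM (factors 0.994 to 1.01). The two-sided quasi-likelihood F-test of edgeR 4.0.16 was fitted on group alone, with 2 residual degrees of freedom and Benjamini-Hochberg adjustment over all genes tested. SE is the log2 fold change over the root of F. RPKM is CPM per 1000 bases of exon. The 2 libraries of a group were not alike within counting noise (chi-square over its degrees of freedom 3.70 and 3.76). Intervals are at the 95% level, and the 3-count floor reflects counting error alone. Alternatives were other scalings and filters, DESeq2 1.42.0, limma-voom 3.58.1, robust dispersions, a replicate block and the removal of each single library, after which the lone library takes its spread from the other group. The steps were tested on simulated data. Members, families and the 6 lists of genes that act with them were chosen with earlier results of these data known. Every called member is given with all library values, other tested members by their levels, and untested ones by counts. The reruns of the 6 lists under the alternatives were chosen after seeing the data. Symbols of 4 genes listed for mTORC1 sensing (Lars, an older name of Lars1, among them), 1 for the ATF4 response, 2 for tonicity and 1 endothelial marker do not match the table. The lists are given by their counts and by examples, and some of their genes, as well as some of the families, are not reported here by name.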

Additional observations from a re-analysis of the deposited data

How the results depend on the processing

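Over 13 alternatives the direction of all 8 called transporters held wherever they were tested, and the median log2 fold change of the transporters ranged from -0.05 to -0.01. Genes called in the whole table numbered 2711, 1646 by DESeq2, and 1710 to 2046 with 1 library left out, the lowest without untreated replicate 2. Transporters higher numbered 6, 3 by DESeq2 (Slc38a2, Slc38a7 and Slc6a6) and 4 to 5 with 1 library left out. Transporters lower numbered 2, 0 by DESeq2 (1 at an unadjusted p under 0.05), 1 with at least 1 CPM in 2 libraries, and 1 to 2 with 1 library left out, with 1 without untreated replicate 2 or Rk1 replicate 1. Upper-quartile scaling moved the share of higher calls in the whole table from 52.5% to 43.5%, and among the transporters it lost Slc36a1 alone. The replicate numbers in the titles share no stated origin (correlation of the replicate differences across genes 0.059, from 2 pairs). With the replicate block 5 transporters were higher and 5 lower, the added falls being Slc7a1, Slc7a3 and Slc7a5, and Slc36a1 was not called. The block also gave 5 higher and 5 lower genes of the GCN2 and ATF4 list. The cause of these differences was not tested. Transporters with 8 to 45 counts per library had intervals too wide to give a direction, Slc38a4 apart.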
